A study of Mus musculus with 51 samples.

Results

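The genes described here are 8 genes of the smooth muscle contractile apparatus, chosen by name: Acta2, Actg2, Myh11, Cnn1, Tagln, Myl9, Des and Actc1. They are 8 of the 16099 genes in a table of expression values from fetal mouse kidney, and each of the 8 also passed the filter on low values (a mean of at least 10) that left 14426 genes for testing. The tissue was kidney of C57BL/6 fetuses labelled wild type (no treatment is named), taken at 4 h steps for 48 h and sequenced as poly-A RNA. Times run from CT0, embryonic day 18 by the sample labels, through CT24 at day 19 to CT48 at day 20, although the design text gives a slightly later end. Every time point had 4 libraries except CT20, which had 3, so the 13 time points hold 51 in all. They are labelled biological replicates, but neither dams nor litters are named. The p-values therefore describe spread among these libraries, and a litter may be shared within a time point.

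Smooth muscle contracts when calcium activates myosin light chain kinase, which phosphorylates the regulatory light chain of smooth muscle myosin and lets its heads pull on actin filaments. Calponin and transgelin bind those filaments, and desmin links the contractile units to each other and to the membrane. Serum response factor with its partner myocardin binds the CArG box, a short AT-rich motif, and is known to drive most of these genes. In the kidney such cells form the media of arteries and arterioles and the muscle coat of the renal pelvis and ureter, whose peristalsis begins before birth. Acta2 is also made by pericytes and activated fibroblasts.

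The deposited values were normalised and rounded before deposit, so library totals of 34226024 to 35711911 do not show sequencing depth, which is unknown. Library numbering separates CT0 to CT24 (27 libraries) from CT28 to CT48 (24 libraries). For most genes both parts have nearly the same mean of log2 values: the differences had an SD of 0.0171 over the 12274 genes with a mean of at least 100, and 0.0326 for arithmetic means. Levels were therefore compared within a part. Kidney markers were present in every library: the podocyte gene Nphs1 was at 2069 to 3079, and the urothelial gene Upk3a, of the lining of pelvis and ureter, was at 387 to 1649. A pair of libraries stood apart in the muscle genes, CT28 replicate 1 and CT48 replicate 2. Some results that rest on them are given with and without them, and others only with them. These are whole-tissue samples, in which fewer cells of a type and less RNA per cell cannot be told apart.

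In GENCODE M21, on the GRCm38 (mm10) build, Acta2 lies at chr19:34241090-34255590, Actg2 at chr6:83512905-83536265, Actc1 at chr2:114047282-114053548 and Myl9 at chr2:156775420-156781658. Myh11 lies at chr16:14194535-14291372, Cnn1 at chr9:22099216-22109630, Tagln at chr9:45929619-45936058 and Des at chr1:75360329-75368579. All are protein-coding genes. Tagln overlaps Pcsk7 and Gm48529, Des overlaps Gm15179, and Actc1 overlaps A530058N18Rik. No source used here says if counting used the strand, so those 3 genes are less certain as single genes. Pcsk7 itself was at 1276 to 1810, below the lowest Tagln value of 3882.

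The 3 actins of the group, smooth muscle alpha (Acta2), smooth muscle gamma (Actg2) and cardiac alpha (Actc1), encode nearly the same protein, and the close of their coding sequences is shown because it bears on whether their reads can be separated. The last 60 coding bases, stop codon included, are given from the same annotation's transcripts, with capitals where a base differs from Acta2.
Acta2: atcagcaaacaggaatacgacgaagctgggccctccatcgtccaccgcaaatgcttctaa
Actg2: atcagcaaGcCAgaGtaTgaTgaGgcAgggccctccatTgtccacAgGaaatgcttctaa
Actc1: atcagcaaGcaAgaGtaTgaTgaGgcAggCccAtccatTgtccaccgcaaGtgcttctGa
Actg2 differed from Acta2 at 11 of these bases and Actc1 at 12. Over the whole coding sequence identity was 84.4% between Acta2 and Actg2, 82.5% between Acta2 and Actc1, and 84.7% between Actg2 and Actc1. The longest identical runs were 29, 23 and 38 bases, and no 50-base window was shared among the 3. Acta2 shared 7 of its 1085 windows of 50 bases with the cytoplasmic actin Actg1.

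Promoters from 250 bases before to 50 after the start, taken from RefSeq on GRCm38.p6, were matched for 5 of the 8 genes (Acta2, Cnn1, Myl9, Des and Actc1). The CArG box was searched on both strands by its name alone, since its central letters are A or T. An exact match was present in 1.63% of the 32851 promoters, and a match with up to 1 other letter in its core in 9.98%. The stretches of the 3 genes with a match are shown because these genes share a known regulator, with the matches in capitals.
Acta2, chr19:34255378-34255477, minus strand: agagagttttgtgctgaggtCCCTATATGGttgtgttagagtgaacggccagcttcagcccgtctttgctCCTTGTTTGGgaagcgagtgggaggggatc
Myl9, chr2:156775283-156775394, plus strand: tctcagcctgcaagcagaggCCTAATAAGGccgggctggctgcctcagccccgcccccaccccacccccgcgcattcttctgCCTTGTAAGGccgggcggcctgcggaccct
Actc1, chr2:114052893-114053070, minus strand: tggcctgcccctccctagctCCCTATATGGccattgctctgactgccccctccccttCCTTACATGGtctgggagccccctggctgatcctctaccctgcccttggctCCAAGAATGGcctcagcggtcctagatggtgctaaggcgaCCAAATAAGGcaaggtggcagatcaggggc
The matches of Myl9 at 161 bases and of Actc1 at 47 bases before the start were exact, and the others, both of Acta2 included, had 1 other letter in the core. No match lay in the windows of Cnn1 and Des, which says only that these letters are not in those windows.

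The genes differed widely in level. Values divided by the summed exon length in kilobases had means over the 51 libraries of 6431 for Acta2, 5560 for Myl9 (the regulatory light chain) and 2682 for Tagln (transgelin, or SM22). Myh11 (smooth muscle myosin heavy chain) was at 316, Des (desmin) at 263, Actg2 at 216, Cnn1 (calponin 1) at 172 and Actc1 at 49.6 per kilobase. Acta2 exceeded Myl9, Myl9 exceeded Tagln, and Tagln exceeded Myh11 in 51 of 51 libraries. Below that the order was looser: Myh11 exceeded Des in 37 libraries, Des exceeded Actg2 in 42, Actg2 exceeded Cnn1 in 37 and Cnn1 exceeded Actc1 in 49. The neighbours Myh11 and Des, and Actg2 and Cnn1, therefore overlapped in this order.

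**Figure D1:**
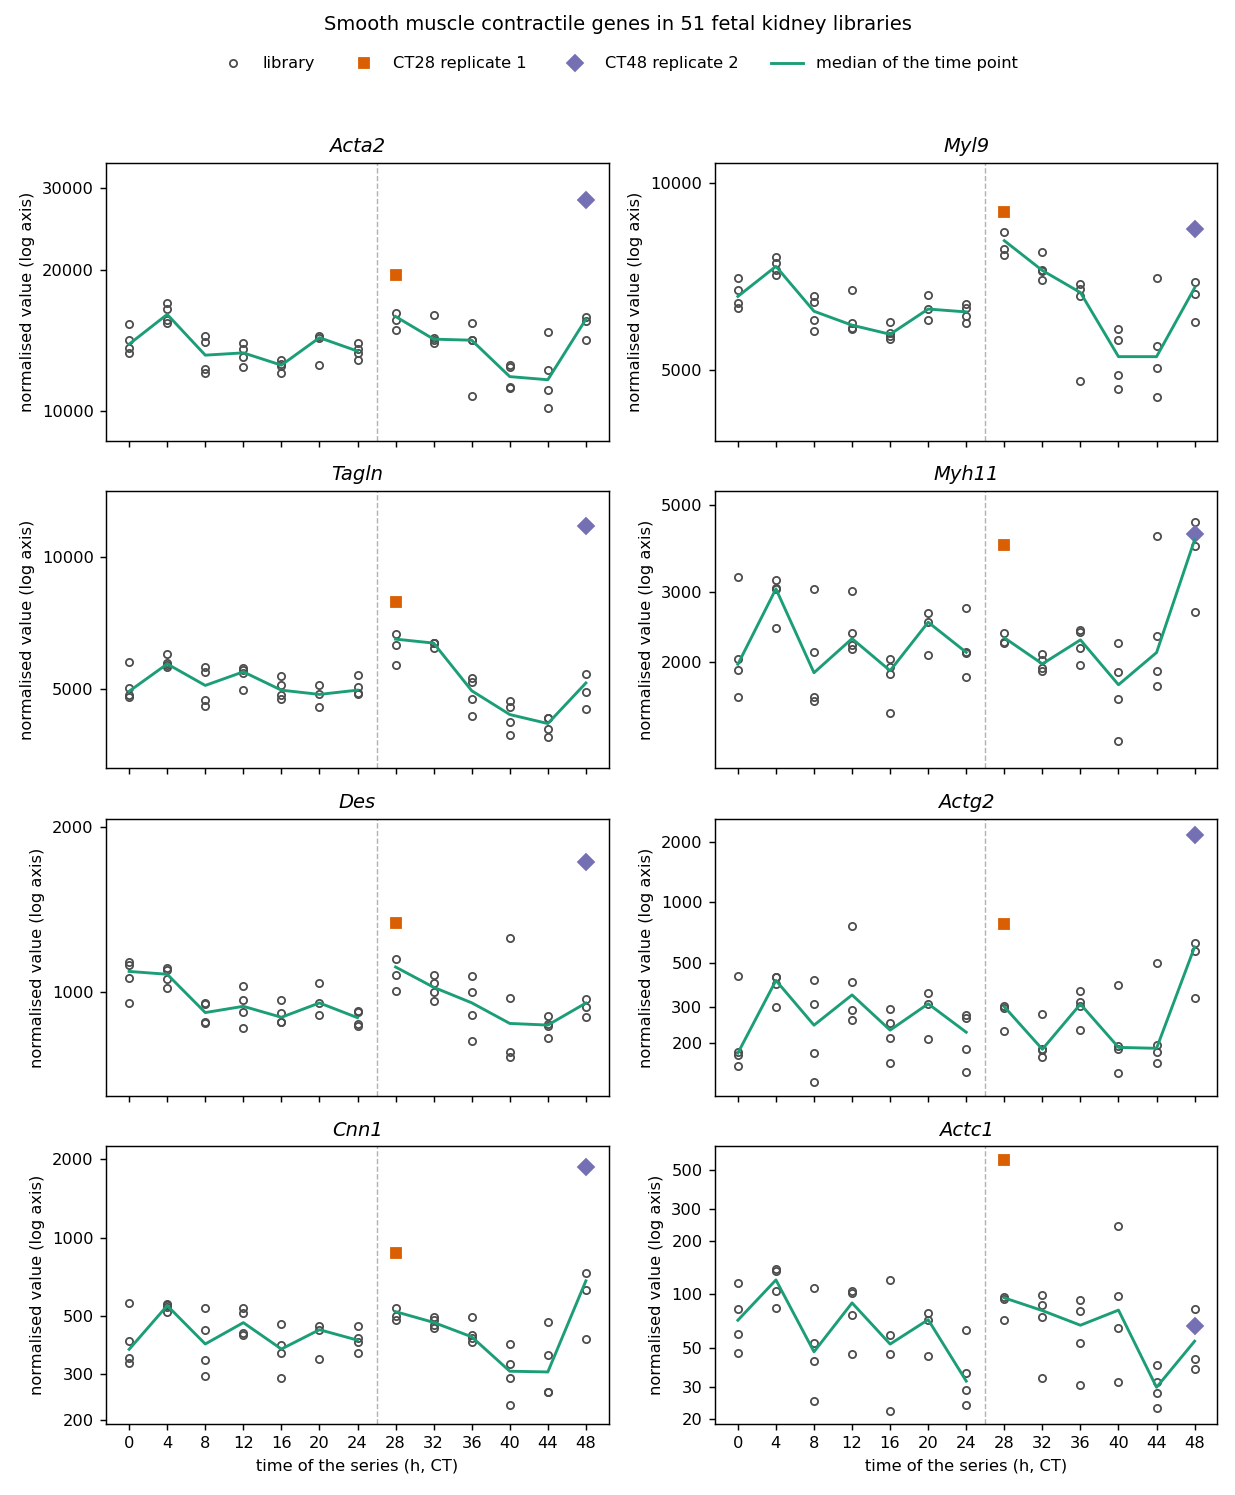
Normalised values of the 8 genes (log axis) against the time of the series in hours for 51 libraries. Open circles are libraries, green lines join the medians of the time points within each part, the dashed line separates the parts, and the orange square and purple diamond are CT28 replicate 1 and CT48 replicate 2. Medians are high at CT4, low from CT40 to CT44 for most genes, and higher again at CT48.

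Acta2, the most abundant actin of smooth muscle, ranged from 10145 to 28281 with a median of 13967. At CT4 its 4 libraries read 17005, 16490, 15686 and 15419, and at CT16 they read 12472, 12073, 12816 and 12570. Every CT4 library lay above every other library of the first part, and the CT16 libraries were among the lowest. In the second part Acta2 read 19545, 16219, 15623 and 14887 at CT28 and 12399, 11265, 12537 and 11159 at CT40. At CT48 it read 14163, 28281, 15560 and 15857, so that 1 library stood far above the other 3.

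Myl9, whose phosphorylation starts contraction, had the smallest spread within time points among the 8 genes in both parts (0.07 and 0.19 log2). It read 7610, 7437, 7109 and 7241 at CT4 and 5980, 5681, 5605 and 5733 at CT16. At CT28 it read 8959, 8326, 7656 and 7817, at CT32 7224, 6967, 7232 and 7731, and at CT40 5593, 4665, 5813 and 4914. The CT28 libraries lay above all CT40 libraries, and by CT48 Myl9 was at 5976, 8443, 6637 and 6917.

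Tagln, an actin-bundling protein much used as an early smooth muscle marker, read 6009, 5733, 5618 and 5671 at CT4 and 5105, 4835, 5359 and 4741 at CT16. It was at 7878, 6674, 6312 and 5668 at CT28 and nearly level across the CT32 libraries, at 6364, 6185, 6367 and 6355. By CT44 it read 4306, 4060, 4286 and 3882, below every library of CT28 and CT32. Its CT48 libraries read 4501, 11757, 4920 and 5402.

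Cnn1, which inhibits myosin's ATPase on actin and marks mature smooth muscle, ranged from 228 to 1861 around a median of 442. At CT4 it read 544, 554, 555 and 520, and at CT16 388, 291, 467 and 361. At the later times it read 872, 538, 483 and 503 at CT28 and 228, 393, 327 and 289 at CT40, with no overlap. Its CT48 libraries read 408, 1861, 632 and 734.

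Myh11, the motor of smooth muscle and its most specific marker, read 3052, 3221, 3074 and 2433 at CT4 and 1938, 1483, 2039 and 1863 at CT16. Single libraries elsewhere reached the same level: CT0 replicate 1 was at 3280 against 1629 to 2037 in the others, and CT28 replicate 1 at 3957 against 2231 to 2361. At CT48 it was high in 3 of 4 libraries, which read 2678, 4225, 3931 and 4517. In the second part its median was highest there, at 4078, against 1751 at CT40.

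Actg2, the actin of visceral smooth muscle such as that of the urinary tract, spread most among replicates of the smooth muscle genes proper. It ranged from 128 to 2172 with a median of 280. At CT4 it read 393, 425, 427 and 300, and at CT0 431, 175, 153 and 181. At CT48 it read 336, 2172, 574 and 627, all above the CT32 libraries of 171, 185, 187 and 280.

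Des, an intermediate filament protein of all muscle types that pericytes also make, lay between 861 and 1134 in the first part, and between 759 and 1729 in the second. It read 1062, 954, 1134 and 1119 at CT0 and 875, 924, 920 and 868 at CT24. All 4 libraries at CT0 lay above all 4 at CT24.

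Actc1, best known from heart and fetal skeletal muscle, was low throughout, from 22 to 566 with a median of 66. It lay between 84 and 138 in the CT4 libraries (median 120.5) and read 24, 63, 29 and 36 at CT24, with no overlap. At CT28 replicate 1 was at 566 while the others were at 72, 97 and 94. At CT40 replicate 3 was at 241 against 32 to 98, and the summed value of 12 skeletal muscle genes was 3970 in that library against 536 to 1027 in the others of CT40. In that library 11 of the 12 were above the companions, among them the fetal skeletal myosin gene Myh8, at 612 against 3 to 90. The share of all tested genes above the companions was not computed for that library. Myog, a myogenic regulator, was at 0 there, but it was at 0 in 16 of the 51 libraries and never above 14. The part of skeletal muscle RNA in the Actc1 values was not tested.

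One day of gestation changed few of these genes at the same clock time. In limma's contrast of CT24 against CT0, 1 of 8 passed the threshold (Benjamini-Hochberg adjusted p under 0.05 over all tested genes) and 3 had an unadjusted p under 0.05. Des fell by 0.25 ± 0.05 (SE) on the log2 scale (adjusted p = 0.00112, 4 libraries at each time). Myl9 (-0.10 ± 0.04, adjusted p = 0.118) did not pass, nor did Actc1 (SE 0.46, adjusted p = 0.116), whose lowest CT0 library (47) was below the highest of CT24 (63). Over all tested genes 12.2% were called lower and 14.3% higher, so 1 of 8 is near the background. The median log2 change of the 8 genes was -0.05, against 0.00 for all tested genes. With the spread estimated from all 51 libraries, Des did not pass either (adjusted p = 0.223).

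A straight line through CT0 to CT24 had a negative slope in all 8 genes. A line over a single day, here and in the second part, also takes up high values early in the day, as at CT4. It therefore does not measure change with age alone. The slope passed in 2 genes. Des fell by 0.23 ± 0.05 log2 per 24 h (adjusted p = 0.00183), and Myl9 fell by 0.19 ± 0.06 (adjusted p = 0.0183). Of all tested genes 10% were called with a falling slope and 12.9% with a rising one. Acta2 had a slope of -0.17 ± 0.07 (adjusted p = 0.0723) and Actc1 one of -1.03 ± 0.40 (adjusted p = 0.0644). The median slope of the 8 was -0.18, against 0.00 for all tested genes. Without replicate 1 at every time point Myl9 did not pass (adjusted p = 0.105), and the slopes of Actg2, Myh11 and Cnn1 became positive. With time-point means as the unit neither gene passed (adjusted p = 0.246 for Myl9 and 0.107 for Des).

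A test of any difference among the 7 time points of the first part called 4 of 8 genes, against 43.5% of all tested genes, which is near the background. They were Myl9 (adjusted p = 2.32e-05), Acta2 (0.000225), Des (0.000673) and Tagln (0.0317), with ranges between the highest and lowest time-point mean of 0.35, 0.37, 0.25 and 0.25 log2. Actg2 (range 0.89, adjusted p = 0.177), Myh11 (0.69, 0.140), Cnn1 (0.55, 0.127) and Actc1 (1.65, 0.0896) had larger ranges and did not pass. Without replicate 1 at every time point the count was 7, but the 43.5% is for the fit with every library of the part and not for that one.

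Those 4 genes were also the ones with the widest libraries. The standard deviation within time points of the first part was 0.66 log2 for Actc1, 0.55 for Actg2, 0.30 for Myh11 and 0.26 for Cnn1, against a median of 0.07 over all tested genes. Acta2, Tagln, Myl9 and Des had 0.09, 0.09, 0.07 and 0.08.

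The slope over CT28 to CT48 passed for Myl9, which fell by 0.46 ± 0.18 log2 per 24 h (adjusted p = 0.0283), and for Actc1, which fell by 1.65 ± 0.62 (adjusted p = 0.0233). Against 2 of 8, 30.7% of all tested genes were called falling and 28.7% rising. Without CT28 replicate 1 neither passed (Myl9 adjusted p = 0.0720, Actc1 0.0849), and 1 gene passed, Myh11 with a slope of 0.76 ± 0.31 (adjusted p = 0.0402). Without CT48 replicate 2 Tagln fell by 0.76 ± 0.13 (adjusted p = 2.50e-05) and Des fell by 0.39 ± 0.13 (adjusted p = 0.0101), and 4 of 8 genes passed. Without both libraries Tagln, Des and Myl9 passed, with slopes of -0.68, -0.31 and -0.54. The shares of all tested genes above are for the fit with every library of the part, not for these fits. With CT28 and CT32 left out the slope of Myl9 was 0.33 ± 0.32 and did not pass (adjusted p = 0.554).

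The test of any difference among CT28 to CT48 called 7 of 8, all but Des (adjusted p = 0.212), against 64.7% of all tested genes. The ranges between time-point means were 0.58 log2 for Acta2, 0.65 for Myl9, 0.67 for Tagln, 1.14 for Myh11, 1.34 for Cnn1, 1.82 for Actg2 and 2.17 for Actc1. With replicate 4 left out at every time point 1 of 8 passed, with replicate 3 left out 2 did, and with CT28 and CT32 left out 2 did. The 64.7% is for the fit with every library of the part, not for these fits. The adjacent time points CT32 and CT36 gave 0 calls among the 8 in limma, with 0 at an unadjusted p under 0.05 and 1 with CT48 replicate 2 left out of the estimate of spread. That gene was Tagln, with a log2 difference of -0.38 (adjusted p = 0.150 with all libraries and 0.000503 without that one). Over all tested genes 19.1% were called lower and 15.7% higher at CT36.

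Whether the slope differed between the parts was tested directly, and 0 of 8 genes passed in limma, with 0 at an unadjusted p under 0.05. Of all tested genes 25.3% had a higher and 29.8% a lower slope in the second part. Without CT48 replicate 2 the count was 2, without CT28 replicate 1 it was 1, and without CT28 and CT32 it was 2. The shares above are for the fit with every library, not for these fits.

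The series title names the circadian clock, and a 24 h cosine was fitted with a line and a step between the parts. It passed for 5 of 8 genes, against 12.3% of all tested genes, and their fitted peaks lay from 3.3 to 5.4 h. Myl9 peaked at 4.4 h, with 0.20 ± 0.03 as its log2 amplitude over 51 libraries (adjusted p = 0.000572). The ± beside every amplitude here and below is the SE of the cosine term alone. It leaves out the sine term, so it is not the SE of the amplitude. Acta2 had 0.21 ± 0.04 at 3.9 h (adjusted p = 0.00435), and Tagln had 0.24 ± 0.04 at 5.4 h (adjusted p = 0.0120). For Cnn1 the amplitude was 0.41 ± 0.08 with a peak at 4.8 h (adjusted p = 0.0157), and for Myh11 it was 0.28 ± 0.07 at 3.3 h (adjusted p = 0.0349). Actg2 (0.35 ± 0.14, adjusted p = 0.320), Des (0.10 ± 0.03, 0.118) and Actc1 (0.05 ± 0.16, 0.980) did not pass.

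These calls rested on libraries taken as independent. When each of the 13 time points entered as 1 mean, 0 of 8 genes passed in limma. Adjusted p was 0.923 for every gene but Actc1 (0.996), although 5 of the 8 had an unadjusted p under 0.05. In that fit 0 of all tested genes passed, with 533 at an unadjusted p under 0.05. Leaving out 1 replicate number at a time gave 4, 3, 2 and 1 genes, and Myl9 passed each time. Far fewer of all tested genes also passed in each of these fits, with counts given under the processing settings below. The fall was therefore not particular to the 8 genes. Without CT48 replicate 2 Myh11 did not pass (adjusted p = 0.0548) and the other 4 did.

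**Figure D2:**
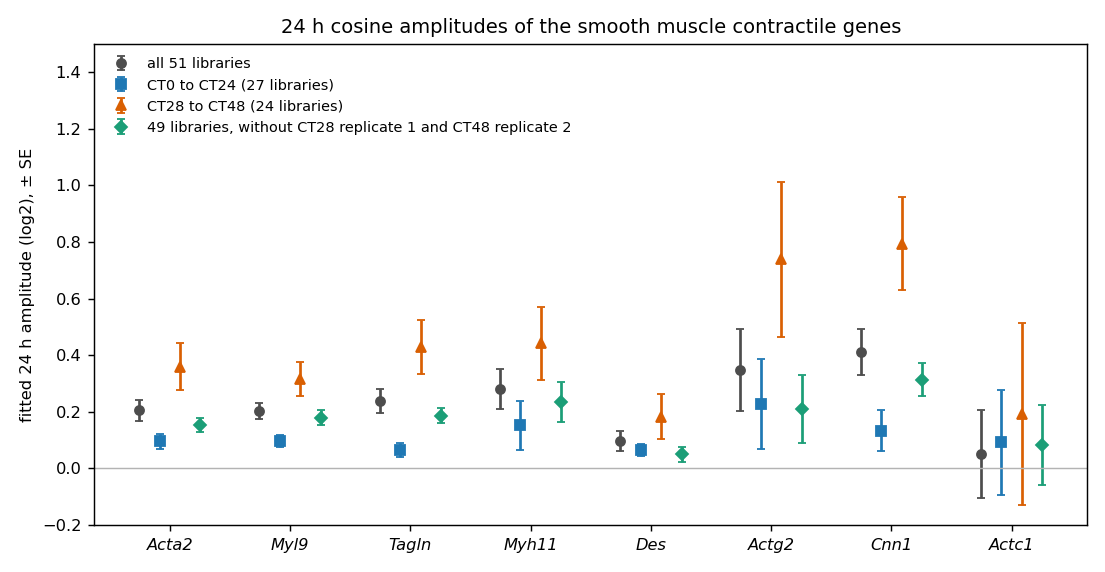
Fitted 24 h amplitudes on the log2 scale for each gene. Bars are the standard error of the cosine term alone, not of the amplitude. Symbols are all 51 libraries (grey circles), CT0 to CT24 (blue squares) and CT28 to CT48 (orange triangles). Green diamonds are all but CT28 replicate 1 and CT48 replicate 2. Amplitudes are higher in the second part for every gene, as for Cnn1 with 0.13 in the first part and 0.79 in the second.

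Each part holds at most a single cycle, with 7 time points in the first and 6 in the second, and the amplitudes in the parts were not alike in size. The fit of the second part keeps both outlying libraries. The median spread of the 8 genes within time points was 0.17 log2 in the first part and 0.32 in the second. In the first part Myl9 had 0.10 ± 0.02 with its peak at 2.9 h (adjusted p = 0.0111) and was the 1 gene of 8 that passed, against 20.9% of all tested genes. Acta2 had 0.10 ± 0.03 (adjusted p = 0.0568), Tagln 0.06 ± 0.03 and Cnn1 0.13 ± 0.07 there. The second part gave 5 calls, against 7.35% of all tested genes, with 0.32 ± 0.06 for Myl9, 0.36 ± 0.08 for Acta2, 0.43 ± 0.10 for Tagln, 0.44 ± 0.13 for Myh11 and 0.79 ± 0.16 for Cnn1. The difference of amplitude between the parts was not tested.

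In the authors' deposited table of a rhythm test over the same series, q was under 0.05 for 5 of the 8 genes and for 41.3% of all 16099. In the authors' deposited table Myl9 had q = 4.38e-08, Tagln 1.55e-05, Acta2 7.65e-05, Cnn1 0.00375 and Des 0.00919. In the authors' deposited table Myh11 had q = 0.0621, Actc1 0.207 and Actg2 1. Des thus passed there and not in the cosine fit, and the reverse was true of Myh11. The tests are unlike: the deposited one gave each gene a period, 26.6 h for Des and 22.8 h for Myh11. The cosine was held at 24 h, with a line and a step.

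Time points 12 h apart near the fitted peak and trough were compared library by library, a choice made with the values already known. At CT4 all 4 libraries lay above all 4 at CT16 for 7 of 8 genes, all but Actc1, while 7.01% of all tested genes showed this. The ratio of means was 1.15 for Tagln, 1.17 for Des, 1.28 for Myl9, 1.29 for Acta2, 1.44 for Cnn1, 1.61 for Myh11 and 1.68 for Actg2. At CT28 against CT40 the same held for 4 of 8 (Acta2, Cnn1, Tagln and Myl9), against 19.8% of all tested genes. Their ratios of means were 1.40, 1.94, 1.53 and 1.56, and their ratios of medians 1.35, 1.69, 1.48 and 1.54. The summed value of 8 urothelial genes moved the same way in the first part: it was 2748 to 3090 at CT4 and 1409 to 2360 at CT16. At CT28 it was 2454 to 4231 and at CT40 1581 to 2962. The part of pelvis or ureter tissue in these differences was not tested.

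**Figure D3:**
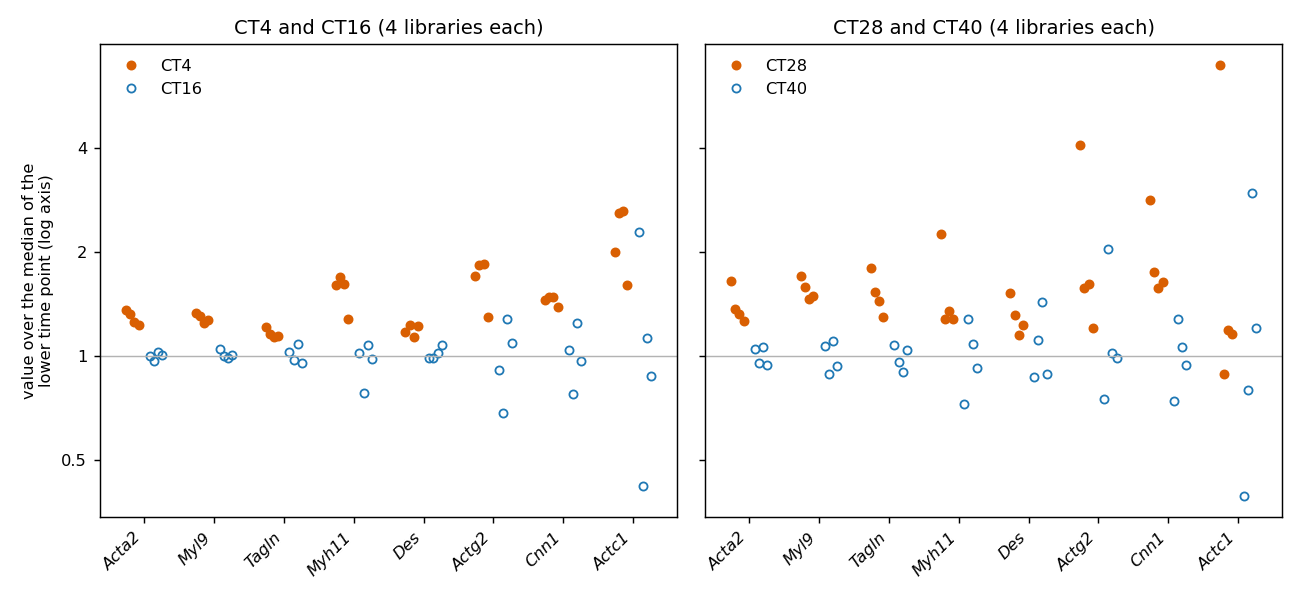
Each library's value divided by the median of the lower time point (log axis) for CT4 and CT16 on the left and CT28 and CT40 on the right. Filled circles are the earlier and open circles the later time point, with 4 libraries each. At CT4 the groups do not overlap for 7 of 8 genes.

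Among single libraries CT48 replicate 2 was above its 3 companions in 6 of the 8 genes, against 22.9% of all tested genes. Actg2 was at 2172 against 336 to 627, Cnn1 at 1861 against 408 to 734, Tagln at 11757 against 4501 to 5402, Acta2 at 28281 against 14163 to 15857, Des at 1729 against 899 to 971 and Myl9 at 8443 against 5976 to 6917. Relative to the median of its companions this was 3.78 times for Actg2, 2.94 for Cnn1, 2.39 for Tagln, 1.82 for Acta2, 1.84 for Des and 1.27 for Myl9. Myh11, at 4225, lay within its companions' range of 2678 to 4517, and Actc1, at 66, within 38 to 83, at 1.07 and 1.53 times their medians.

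Other genes of the contractile apparatus were also above all companions in CT48 replicate 2, in 16 of 24, against the same 22.9%. Tpm1, a tropomyosin, was at 25626 against 15605 to 17291, Lmod1, an actin nucleator of smooth muscle, at 618 against 294 to 299, and Csrp1, a LIM protein of smooth muscle, at 15836 against 10133 to 11087. Of 5 mesothelial genes, 2 were above the companions, and the list summed to 12078 against 9259 to 9888. Krt19, an epithelial keratin on that list, was at 3907 against 1041 to 1186, and the raised sum rested on this gene. The summed urothelial genes were at 3145, within the range of the others (2023 to 3194), and the pericyte and mesangial sum was at 44910 against 44594 to 46490. Endothelial genes were lower, at 30650 against 33597 to 35323. Across all tested genes 3.32% were at least 1.5 times the companions' median in this library.

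CT28 replicate 1 was above its companions in 8 of the 8 genes, against 29.8% of all tested genes. Actc1 was 6.02 times the companions' median, Actg2 2.60, Myh11 1.76 and Cnn1 1.73, while Acta2, Tagln and Des were 1.25 times and Myl9 1.15. Here the urothelial sum was raised, at 4231 against 2454 to 2636, with 7 of 8 genes above the companions, and Upk3a was at 1649 against 924 to 969. The cardiac list summed to 624 against 356 to 450, but 3 of 10 genes above the companions is near the 29.8% of all tested genes. Tnnt2, at 217 against 38 to 49, held much of the excess in that sum. Of all tested genes 4.16% were at least 1.5 times the companions' median. The part of pelvis or ureter tissue in this library's muscle values was not tested.

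In the first part CT0 replicate 1 and CT8 replicate 1 were each above their companions in 7 of the 8 genes, with a median ratio of 1.41 and 1.38. The share of all tested genes above the companions was not computed for these libraries. Actg2 in CT0 replicate 1 was at 431 against 153 to 181, and Cnn1 at 564 against 332 to 401.

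**Figure D4:**
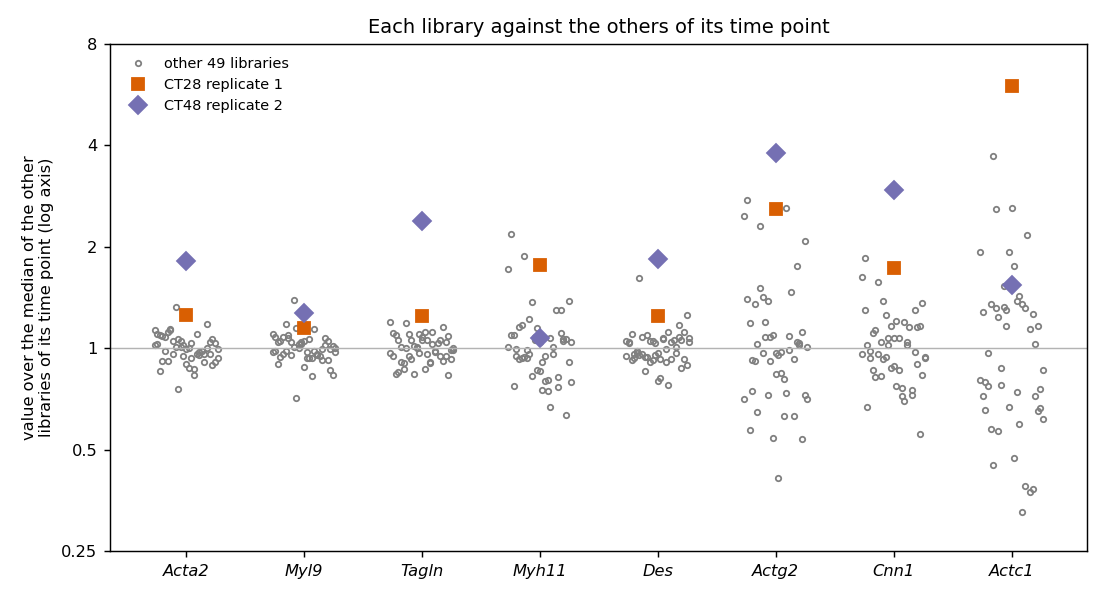
Each library's value divided by the median of the other libraries of its time point (log axis), for the 8 genes. Grey circles are the other libraries, the orange square is CT28 replicate 1 and the purple diamond is CT48 replicate 2. Actc1 reaches 6.02 in CT28 replicate 1, and Actg2 reaches 3.78 in CT48 replicate 2.

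Deviations from the time-point means went together across the 51 libraries. All 28 pairs of the 8 genes had a positive Pearson r, with a median of 0.56 (0.18 to 0.88), and 22 passed a permutation test (100000 permutations, adjusted over the 28), or 24 by Spearman's rho. Within the first part the median r was 0.69 and within the second 0.55, and without the pair of outlying libraries it was 0.43. Libraries of 1 time point share the mean that was subtracted.

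The closest pairs were Actg2 with Cnn1 (r = 0.88, rho = 0.85, adjusted permutation p = 4.7e-05 and 5.6e-05) and Acta2 with Myl9 (r = 0.87, rho = 0.88, the same p-values). With the 2 libraries farthest from the median of the first-named gene left out, r was 0.84 and 0.87. Actg2 with Myh11 had r = 0.80 (rho = 0.84, adjusted permutation p = 4.7e-05 and 5.6e-05), and 0.83 without the 2 farthest. Acta2 with Tagln had r = 0.86 (rho = 0.75, adjusted permutation p = 4.7e-05 and 8e-05), and 0.79 without them. Tagln with Des had r = 0.59 (rho = 0.28, adjusted permutation p = 0.11 and 0.12), and with CT48 replicates 1 and 2 left out r was 0.16, so that relation rested on those libraries. By Pearson's r the lowest pair was Actc1 with Myl9 (r = 0.18, rho = 0.26, adjusted permutation p = 0.21 and 0.12), and by rho it was Actc1 with Des (r = 0.34, rho = 0.23, adjusted permutation p = 0.057 and 0.16). Within the parts Actg2 with Cnn1 had 0.85 and 0.91, and Acta2 with Myl9 had 0.78 and 0.88.

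**Figure D5:**
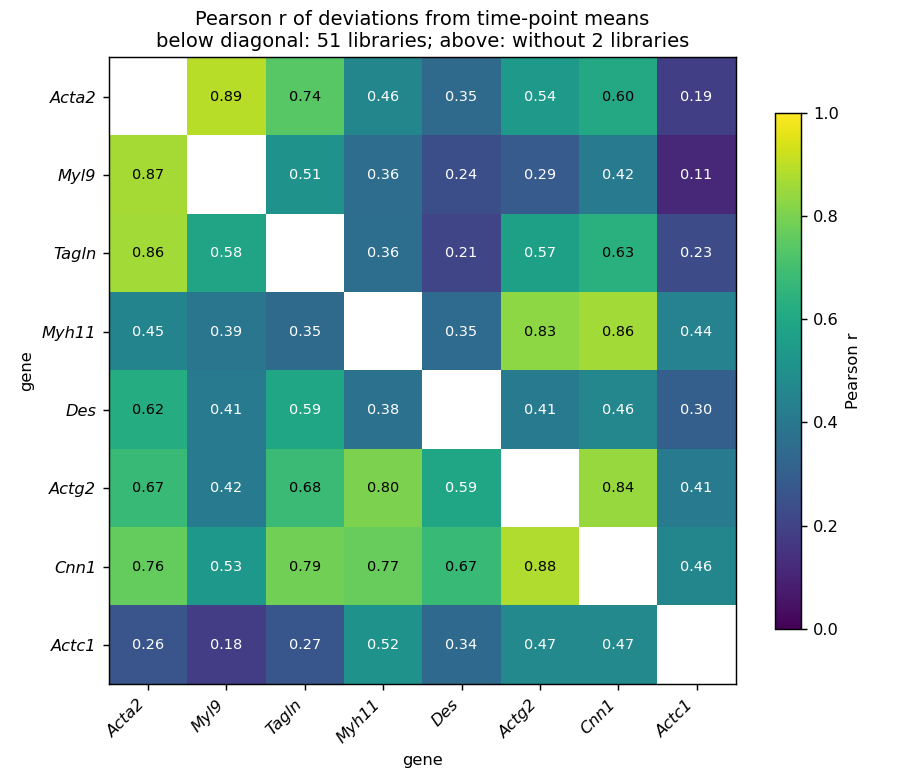
Pearson r between the deviations of gene pairs from their time-point means, with all 51 libraries below the diagonal and without CT28 replicate 1 and CT48 replicate 2 above it. Colour runs from 0 (dark) to 1 (yellow), and all pairs are positive, from 0.18 to 0.88 below the diagonal.

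The genes outside the group most like the mean of the 8, by r of the same deviations over 51 libraries, were S100a6 (0.79), Tpm2 (0.75), Tpm1 (0.75), Csrp1 (0.74), Hspb8 (0.74) and Sfn (0.70), followed by Akr1b8, Sprr1a, Olfml2b and Trpv2 (0.69 to 0.66). Tpm1, Tpm2 and Csrp1 belong to the contractile apparatus, and Sfn and Sprr1a are genes of stratified epithelium. Tagln was most like Tpm1 (0.92), Csrp1 (0.85) and Krt18 (0.84), and Acta2 most like Csrp1 (0.88), Tpm1 (0.86) and Olfml2b (0.81). For Myl9 they were Adam19 (0.82), Lgals1 (0.79) and Thbs2 (0.79). Within the first and the second part alone, r was 0.11 and 0.86 for Akr1b8 with the mean, 0.20 and 0.91 for Myl9 with Adam19, and 0.30 and 0.89 for Tagln with Krt18.

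Myh11 was most like Ly6d (0.81), Tnnt2 (0.79) and the basal keratin Krt5 (0.76). Cnn1 was most like S100a6 (0.81), Sprr1a (0.77) and Sfn (0.77), and Actg2 most like Sprr1a (0.76), S100a6 (0.75) and Psca (0.68). Des was nearest to Krt8 (0.72), Lmod1 (0.72) and Tgfb2 (0.68, with 0.11 in the first part and 0.76 in the second), and Actc1 to the muscle creatine kinase Ckm (0.69), Nbn (0.66) and Arpc2 (0.65). Without the pair of outlying libraries the values of these genes lay lower for most, as 0.60 for Tagln with Krt18, and were 0.80 for Myh11 with Ly6d.

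Of 24 other genes of the contractile apparatus, 0 rose and 6 fell in the first part by slope, against 12.9% and 10% of all tested genes. The largest falls were in Tpm2 (-0.32 ± 0.05 log2 per 24 h, adjusted p = 6.56e-05), Synpo2 (-0.20 ± 0.05, 0.00376), Cnn2 (-0.14 ± 0.04, 0.0167) and Tpm1 (-0.14 ± 0.03, 0.00195). In the second part 7 rose and 8 fell, or about the share of all tested genes (28.7% and 30.7%). Ppp1r14a, which inhibits myosin phosphatase, fell by 1.11 ± 0.16 (adjusted p = 1.26e-06), Tpm2 fell by 0.95 ± 0.17 (2.70e-05) and Nexn fell by 0.87 ± 0.14 (7.25e-06). The 7 rises were smaller, up to 0.63 for Hspb6, a small heat shock protein of muscle. The median slope of the list was -0.04 in the first and 0.03 in the second part. A 24 h cosine passed for 7 of the 24, against 12.3% of all tested genes, with Lmod1 (amplitude 0.33 ± 0.05, adjusted p = 0.00767), Tpm2 (0.21 ± 0.03, 0.00307) and Cnn2 (0.16 ± 0.03, 0.00692) the largest.

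Of the transcription factors and signals that control these genes, 16 of 17 were tested and 3 passed for the 24 h cosine, against 12.3% of all tested genes: Mkl2, a cofactor of serum response factor (0.15 ± 0.03, adjusted p = 0.0428), Tgfb2, a growth factor (0.14 ± 0.03, 0.0224), and Srf itself (0.09 ± 0.02, 0.0438). Myocd, the gene of myocardin and named for its role, was at 156 to 446 and did not pass (0.16 ± 0.05, adjusted p = 0.182). By slope 3 rose and 0 fell in the first part, against 12.9% and 10% of all tested genes, and 6 rose and 1 fell in the second, against 28.7% and 30.7%. Klf4, a factor known to repress smooth muscle genes, rose by 0.30 ± 0.10 log2 per 24 h in the first part (adjusted p = 0.0251) and by 1.53 ± 0.21 in the second (adjusted p = 5.39e-07). The slope of Klf4 differed between the parts (1.23 ± 0.22, adjusted p = 7.13e-06).

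Of 11 pericyte and mesangial genes tested, 6 rose and 0 fell by slope in the first part, against 12.9% and 10% of all tested genes, and the difference from the 8 muscle genes was not tested. Abcc9 and Kcnj8, channel subunits of pericytes, rose by 0.41 ± 0.07 and 0.35 ± 0.06 log2 per 24 h (adjusted p = 8.96e-05 and 5.39e-05), and Rgs5 rose by 0.28 ± 0.04 (2.87e-06). In the second part 4 rose and 1 fell, against 28.7% and 30.7%, with Mcam up by 0.79 ± 0.08 (adjusted p = 4.69e-09) and Akr1b7, an aldose reductase of renin cells, with a slope of -1.15 ± 0.15 (adjusted p = 2.14e-07). Of the 7 urothelial genes tested, 0 rose and 2 fell by slope in the first part, against 12.9% and 10% of all tested genes, Upk3a by -0.58 ± 0.12 (adjusted p = 0.00108) and Upk2 by -0.51 ± 0.18 (0.0362). In the second part 1 rose, Upk1b (0.70 ± 0.23, adjusted p = 0.00929), and 1 fell, Upk3a (-0.66 ± 0.28, 0.0487), against 28.7% and 30.7%. Upk3a and Upk2 also passed the 24 h cosine, with 0.24 ± 0.05 (adjusted p = 0.00979) and 0.25 ± 0.07 (0.0459). The part of these cell types in the muscle values was not tested.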

How the data were processed

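Poly-A RNA of fetal kidney was sequenced with Illumina TruSeq libraries, per the labels' protocols; bcl2fastq, STAR 2.5.2b, featureCounts 1.5.0-p3 and the mm10 build are named in the submitters' processing notes. How values were normalised was not given in the sources used here. What the authors deposited is a table of expression values, treated as a score: whole numbers that the authors normalised before rounding, read from the values, since totals are nearly equal and low genes of the first part had a variance of 0.736 times their mean, below counting noise (3.01 times in the second part, which does not show this). Depth is unknown, so no counting interval was computed. The authors' deposited rhythm table holds p-values and q-values and scores for period and phase, per the file headers.

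The expression values were analysed with limma 3.58.1 (R 4.3.3) on log2(value + 1), which understates changes of low genes over genes whose mean reached 10, with limma's trend and robust options. P-values were adjusted by Benjamini-Hochberg over all 14426 genes. Contrasts and slopes used the libraries of 1 part, and the rhythm and the slope difference used all 51. The limma fits were tested on simulated data. Correlations used Python 3.11.15 and scipy 1.17.1, with 100000 permutations. Identical values were found in 0 library pairs.

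The 8 genes and all lists were chosen with earlier results of these data known. From each list at most 4 genes past the threshold with the largest effect are named, and for likeness the 10 genes nearest to the mean and the 3 nearest to each gene, without predicted, pseudo and sex-linked genes. The fits without single outlying libraries, by time-point means and by part, and the comparisons of CT4 with CT16 and of CT28 with CT40, were added with the values already known. Alternatives were another pseudocount, no filter, quantile scaling, library weights, a replicate block, pooled spread and left-out libraries. Of the pericyte list Gucy1a1 and Gucy1b1 were not analysed here.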

Additional observations from a re-analysis of the deposited data

Results flagged for a closer look

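Of the 96 groups of 4 libraries (8 genes at 12 time points), 15 had a highest or lowest library set apart from the other 3 by a gap that took up nearly the whole range of the group (above Dixon's 95% critical value), or 15.62%. Chance flags about 1 in 20 groups, and the groups are not independent, since libraries recur across genes. The cause was not tested.

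CT48 replicate 2 was set apart for 4 genes: Acta2 at 28281, Actg2 at 2172, Tagln at 11757 and Des at 1729. CT28 replicate 1 was set apart for another 4: Actg2 at 776, Myh11 at 3957, Cnn1 at 872 and Actc1 at 566. CT32 replicate 4 stood high for Acta2, at 16061 against 13967 to 14294, and for Actg2, at 280 against 171 to 187. Actg2 was also high in CT0 replicate 1, at 431 against 153 to 181, and in CT44 replicate 2, at 499 against 158 to 195. Myl9 was high in CT12 replicate 1, at 6736 against 5828 to 5954, and low in CT36 replicate 4, at 4804 against 6581 to 6875. Tagln in CT32 replicate 2, at 6185 against 6355 to 6367, was set apart by a small absolute distance because its companions were nearly equal.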

How the results depend on the processing

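Counts of the 8 genes called are given here under settings that moved them by over 1.5 times. The causes were not tested. Counts over all tested genes moved too under several of these settings, as given below. A moved count is therefore not a result about the 8 genes alone. With the spread estimated from all 51 libraries the count was 0 for CT24 against CT0, for the slope and for any difference in CT0 to CT24 (1, 2 and 4 otherwise), and 2 for CT36 against CT32 (0 otherwise). Library weights gave 2 for CT24 against CT0 and 4 for the first slope, and quantile scaling gave 4 for that slope. Without CT28 and CT32 the counts were 0 for the second slope, 2 for any difference in CT28 to CT48 and 2 for the slope difference, and the slope of Myl9 reversed to 0.33. Without both outlying libraries they were 1 for CT36 against CT32 and 1 for the slope difference. Time-point means as the unit gave 0 for the first slope, 1 for the second and 0 for the rhythm, and the first part alone gave 1 for the rhythm.

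Over the fits that left out 1 replicate number or 1 library, counts ran from 1 to 2 for the first slope, from 3 to 7 for any difference in CT0 to CT24, from 0 to 1 for CT36 against CT32, from 1 to 4 for the second slope, from 1 to 7 for any difference in CT28 to CT48, from 0 to 2 for the slope difference and from 1 to 5 for the rhythm. Another pseudocount, no filter on low values and leaving out the 2 libraries of another ID prefix (CT12 replicate 4 and CT36 replicate 3) moved no count of these genes by over 1.5 times.

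Same-numbered libraries of a part had correlations of deviations from -0.302 to 0.380 (median 0.0143). Pairs of other numbers had -0.469 to 0.328 (median -0.00939). Correlations over 0.1 were found in 29 of 138 same-numbered pairs and 62 of 414 others, and 19 of 51 libraries correlated best with one of their own number. Whether replicate numbers paired the libraries was not tested. With the replicate block the rhythm called 5 of the 8 genes and 1725 of all tested genes, and no count of the 8 moved by over 1.5 times.

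Counts over all tested genes also moved. The rhythm called 1773 genes, and 3611 with library weights, 724, 320, 224 and 301 without replicates 1 to 4, 3015 in the first part, 1060 in the second and 0 by time-point means. The first slope called 3310 genes, and 736 with all libraries in the spread, 1599 and 1819 without replicates 2 and 3, and 768 by time-point means. The second slope called 8561, and 1074 without CT28 and CT32.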

Other observations

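Lists of other cell types were fitted in the same way. The 24 h cosine passed in limma for 2 of 11 skeletal muscle genes, 0 of 8 cardiac, 0 of 11 pericyte and mesangial and 2 of 7 urothelial genes. It passed for 0 of 11 fibroblast, 0 of 10 endothelial, 0 of 4 adrenal and 1 of 5 mesothelial genes. Over all tested genes 12.3% passed. In the order of these lists 4, 0, 3, 2, 1, 4, 1 and 1 genes had an unadjusted p under 0.05. The skeletal pair was Acta1, skeletal alpha actin (log2 amplitude 0.99 ± 0.22, adjusted p = 0.0260), and Myh8 (1.57 ± 0.39, 0.0499). Myh8 was low, with a mean of 31.9, and CT40 replicate 3 stood far above its companions in it. Of the other actins, cytoplasmic gamma actin Actg1 passed (0.14 ± 0.02, adjusted p = 0.00814) and beta actin Actb did not (0.07 ± 0.02, 0.0638). Per kilobase of exon, Actb and Actg1 had means of 19934 and 16156 over the 51 libraries, above the 6431 of Acta2, and Acta1 had 50.8, close to the 49.6 of Actc1.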
